A study of Mus musculus with 24 samples.

Results

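The complement genes examined here were 35 mouse genes, chosen by symbol and represented on the arrays by the brightest probe that maps to each symbol, out of 22911 symbols with a probe. They comprised 5 genes for recognition and proteolysis in the classical pathway, 4 in the lectin pathway, 5 convertase and alternative pathway components, 7 terminal pathway components, 5 soluble regulators, 4 membrane regulators and 5 receptors. The RNA was that of 4 tissues, the liver, lung, kidney and white fat (WAT), of male C57BL/6J mice aged 10 weeks (10W, young) or 90 weeks (90W, aged), without any treatment named in the labels. Each tissue and age had 3 mice, and each mouse and tissue was read on its own array in 1 colour, giving 24 arrays. Which fat depot was taken, and whether 1 animal gave several of the tissues, is not stated in the sources used here.

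Complement is a cascade of plasma proteases and membrane receptors that marks microbes, immune complexes and dying cells. The classical pathway starts when C1q binds a target and activates the proteases C1r and C1s, the lectin pathway starts with mannose-binding lectins and their proteases, and the alternative pathway amplifies both through factor B and properdin. All routes meet at C3, whose cleavage feeds the membrane attack complex of C5 to C9 and releases peptides sensed by receptors on myeloid cells. Hepatocytes make most of the circulating proteins, whereas C1q and properdin are known as products of macrophages and other myeloid cells.

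Levels are given as the log2 processed signal of a probe minus the 75th percentile of its array, so a value of 0 is at that percentile, and values near -8 are close to background. Probes could miss the limit for well above background at higher values too, as Cd46 did at a mean of -5.56 in the young livers. Differences are on the same log2 scale, 90W minus 10W, with the standard error (SE) of the limma fit. A gene was called at a limma p under 0.05 after Benjamini-Hochberg adjustment over all genes tested in the tissue, and it was tested where at least 3 of the tissue's 6 arrays had its probe well above background. Because RNA was taken from whole tissue, fewer cells of a type and less RNA per cell cannot be told apart. Young and aged arrays of a tissue lay on the same slide, 1 slide for each tissue, so slide and tissue cannot be told apart. The share of probes well above background ran from 58.6% to 71.1% over the arrays, and the number of mice limits the precision. This share separated by age in the kidney (64.7% to 69.2% young, 70.7% to 71.1% aged) and the liver (58.6% to 62.1%, then 62.3% to 62.6%). The 75th percentile signal did so too: 460 to 618, then 788 to 862 (kidney), and 259 to 307, then 340 to 448 (liver). The lowest aged lung array was at 59.5%.

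The markers of each labelled tissue were present: hepatocyte markers summed to between 12.2 and 12.3 in the young livers, and the sums of lung epithelium, kidney epithelium and adipocyte markers were likewise higher in their own tissue than in the others. Some arrays stood apart from their group. The lung of 90W replicate 1 carried liver-type transcripts, with the hepatocyte marker sum at 7.53 against 1.56 and 2.23 in the other aged lungs. The lung of 90W replicate 3 held the resident macrophage markers Clec4f, known from Kupffer cells, at 2.41 and Timd4 at 0.42, against at most -2.03 and -4.22 in the other aged lungs. The lung of 90W replicate 2 had a neutrophil marker sum of 10.5 against 8.29 and 7.35 in the other aged lungs. Its B cell marker sum was 1.71 against 4.95 and 4.58. In the WAT of 10W replicate 1 the fibroblast sum was 7.45 and the macrophage sum 5.44, the lowest of the 3 young mice. Its mesothelium marker sum was 1.13 against 5.76 and 4.77 in the other young WAT, and its kidney epithelium sum 2.28 against 0.31 and 0.21. The WAT of 90W replicate 3 had a neutrophil sum of 9.94 against 2.86 and 6.28 in the other aged WAT.

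In young mice the complement genes were predominantly liver transcripts. The 10W level of 21 of the 35 genes was higher in the liver than in each of the 3 other tissues by limma, against 19.4% of all genes tested. Cd55 alone was highest in the lung (9.84% of all genes tested) and Cd46 alone in WAT (6.99%), where 5 genes were highest without WAT 10W replicate 1. No gene had its highest young mean in the kidney, where 9.17% of all genes tested were highest by limma. The probes used for 33 members were well above background on every young liver array, as were 27 for lung, 29 for kidney and 27 for WAT. In the young livers Cd46 was the single gene whose probe used was well above background on no array. The same held for the probes used for Mbl2, Masp1, Masp2, C8a, C8b and C4bp in the lung, of Masp1, C8b and Vsig4 in the kidney, and of Mbl1 and Masp1 in WAT. The second Masp1 probe, dimmer over all arrays, averaged -4.83 in the young lungs.

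**Figure D1:**
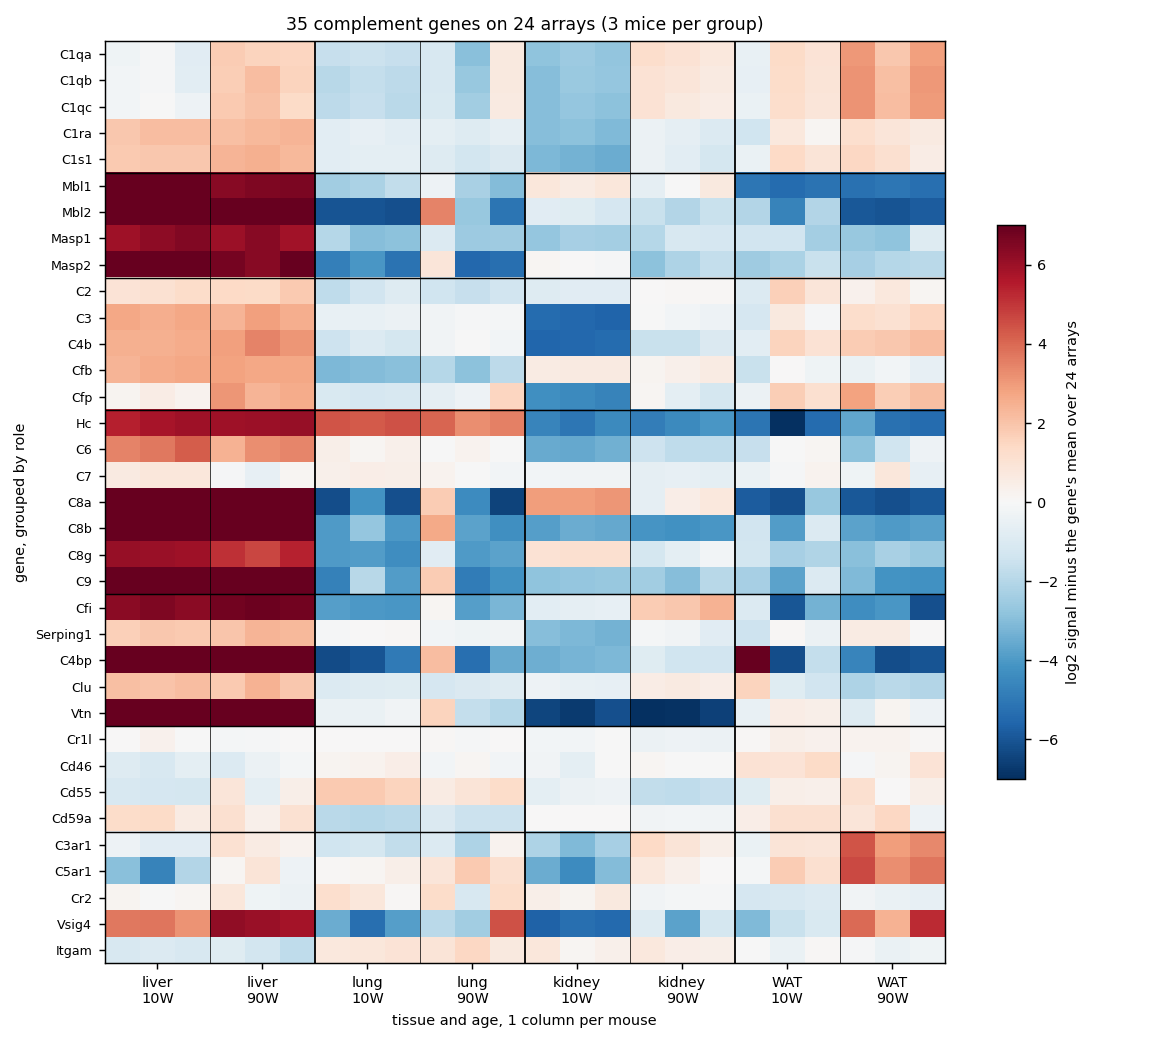
The heatmap gives each of the 35 complement genes (rows, grouped by role, with lines between roles) on each of the 24 arrays (columns, 3 mice per tissue and age) as the log2 signal minus the mean of that gene over all arrays, with red for values above and blue for values below that mean. The liver columns are red for lectin pathway, terminal pathway and most soluble regulator genes, the C3, C4b and C1q rows turn from blue to paler or red between the 10W and 90W kidney columns, and 1 aged lung column and 1 young WAT column differ from their neighbours.

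Below the liver, the order of the tissues differed between genes. C3, the central component, stood at 10.11 ± 0.09 (SD, n = 3) in the young liver, 7.26 ± 0.93 in young WAT, 6.98 ± 0.05 in young lung and 1.96 ± 0.09 in young kidney. The step from WAT to lung did not pass the test (limma adjusted p = 0.43), and the step from lung to kidney was 5.02 (limma adjusted p = 3.64e-11). C1ra, a C1 protease, was at 6.33 ± 0.17 (SD, n = 3) in the liver and 1.27 ± 0.12 in the kidney, with WAT at 4.09 ± 1.09 and lung at 3.58 ± 0.09 not separated by the test. Mbl2, a mannose-binding lectin, was at 7.83 ± 0.07 in the liver and no higher than -2.59 ± 0.20 (SD, n = 3) elsewhere. Among terminal components, C8g, the gamma chain of C8, was at 8.40 ± 0.10 in the liver, 3.47 ± 0.05 in the kidney, 0.47 ± 0.54 for WAT and -1.69 ± 0.23 for the lung (SD, n = 3), and each step passed the test. Hc, which encodes C5, stood out as a gene of both liver and lung, at 5.85 ± 0.25 and 4.50 ± 0.11 (SD, n = 3), against -4.60 ± 0.32 in the kidney and -5.71 ± 0.99 in WAT. The step from lung to kidney was 9.11 (limma adjusted p = 3.33e-12).

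Regulators and receptors did not share 1 pattern. All 5 soluble regulators and the receptor Vsig4 were among the 21 genes highest in the young liver, while Cr1l and Itgam were not. Clu, clusterin, an inhibitor of the membrane attack complex, was at 8.87 ± 0.08 (SD, n = 3) in the liver and between 5.89 and 6.57 on average in the other tissues, where no neighbouring step passed the test. Cr1l, the rodent membrane regulator Crry, lay between 4.08 and 4.47 in all 4 tissues, and no neighbouring step passed the test. Itgam, the alpha chain of complement receptor 3, ran from 4.49 ± 0.11 in the lung to 2.61 ± 0.10 in the liver (SD, n = 3). The Itgam value rests on the brighter of its 2 probes, the other of which lay at -3.42 in the young lung. At 90W the liver was again highest for 21 genes (15.5% of all genes tested), with C2 added and Vsig4 no longer included, and C3ar1 and C5ar1 were then highest in WAT (7.02%).

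Upstream sequences are shown for some of the genes named in the age comparisons below: C3, the C1q chains C1qb and C1qc, and the receptors Vsig4 and C3ar1. RefSeq sequences of the 250 bases before the transcription start, on the build GRCm38.p6, were given for 27 of the 35 genes. Both strands were searched for PU.1 (GAGGAA), C/EBP (TTGCNNAA) and STAT GAS (TTCNNNGAA) letters and for NF-kB, ISRE and HNF1 motifs, and capitals mark the matches. Every window shown holds a match. The windows of Cfp, C5ar1 and Cd55, also named in the age comparisons, held no match and are not shown. The array was designed on another build, so the coordinates belong to the sequences and not to the probes.
C3 (chr17:57228137-57228386, minus strand): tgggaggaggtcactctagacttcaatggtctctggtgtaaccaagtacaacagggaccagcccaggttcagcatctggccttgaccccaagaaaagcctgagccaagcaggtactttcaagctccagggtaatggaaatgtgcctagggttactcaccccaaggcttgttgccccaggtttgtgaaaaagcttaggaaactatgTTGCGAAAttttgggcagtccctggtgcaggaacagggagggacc
C1qb (chr4:136886201-136886450, minus strand): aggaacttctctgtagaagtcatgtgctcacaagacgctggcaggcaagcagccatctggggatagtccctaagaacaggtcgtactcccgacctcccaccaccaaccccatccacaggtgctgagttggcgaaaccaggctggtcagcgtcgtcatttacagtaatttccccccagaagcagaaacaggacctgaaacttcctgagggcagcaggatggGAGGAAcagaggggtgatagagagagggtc
C1qc (chr4:136892915-136893164, minus strand): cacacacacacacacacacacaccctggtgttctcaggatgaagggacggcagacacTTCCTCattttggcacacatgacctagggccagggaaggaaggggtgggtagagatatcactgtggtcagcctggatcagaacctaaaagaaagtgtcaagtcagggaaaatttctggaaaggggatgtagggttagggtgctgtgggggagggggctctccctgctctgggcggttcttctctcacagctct
Vsig4 (chrX:96293439-96293688, minus strand): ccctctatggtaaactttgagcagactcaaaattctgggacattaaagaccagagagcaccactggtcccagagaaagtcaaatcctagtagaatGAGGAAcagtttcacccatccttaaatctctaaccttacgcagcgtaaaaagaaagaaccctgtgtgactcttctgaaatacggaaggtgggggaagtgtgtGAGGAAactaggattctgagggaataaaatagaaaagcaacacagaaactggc
C3ar1 (chr6:122856158-122856407, minus strand): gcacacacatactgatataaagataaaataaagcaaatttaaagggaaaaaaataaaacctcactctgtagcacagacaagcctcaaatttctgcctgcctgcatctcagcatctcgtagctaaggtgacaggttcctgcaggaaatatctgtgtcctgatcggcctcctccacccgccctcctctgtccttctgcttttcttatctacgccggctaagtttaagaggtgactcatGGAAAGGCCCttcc
C3 carried the C/EBP letters at position -45 from the start, C1qb the PU.1 letters at -30, C1qc at -193 and Vsig4 at -155 and -53, while C3ar1 carried the NF-kB letters at -14. Over the 27 upstream windows, 5 genes (18.5%) held the PU.1 letters, against 23.1% of 27025 windows of all genes. C/EBP letters were found in 3 of 27 (11.1%, against 9.55%), STAT GAS in 3 (11.1%, against 7.18%), HNF1 in 2 (7.41%, against 0.411%), and NF-kB and ISRE in 1 each (3.70%, against 1.40% and 3.04%). Hc and C4bp were the genes with the HNF1 letters. Each match is a description of letters in the window.

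The aged kidney held the broadest change. Of 32 complement genes tested there, 16 rose and 9 fell by limma, where 20.7% of all genes tested rose and 42.5% fell. The median change of the 32 genes was 0.62, beside -0.23 over all genes tested. Scaling to the spike-in control spots moved the all-gene median from -0.23 to 0.14 and the split of the complement calls from 16 higher and 9 lower to 19 and 4. The genes that rose were classical pathway genes (5 of 5), convertase and alternative pathway genes (4 of 5), soluble regulators (4 of 5), the receptors C3ar1 and C5ar1, and the terminal component C6. In each tissue the genes given in full were chosen among called genes whose ages did not overlap. Their separation by age follows from that choice and is no further support. The share of all genes without overlap was not counted.

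C3 changed most. The young kidneys read 2.06, 1.94 and 1.88, and the aged kidneys 7.43, 7.28 and 7.09, so the groups did not overlap and lay far apart. The change was 5.31 (SE 0.11, a 39.6-fold rise, limma adjusted p = 8.51e-06), and the second C3 probe gave 4.77. The same probe read 7.20, 7.35 and 7.31 in the aged lungs. C4b, which supplies the C4 part of the classical convertase, read -0.17, -0.12 and -0.00 in the young kidneys and 3.84, 3.84 and 4.37 in the aged ones. All 3 aged mice were above all young mice, as the choice of genes required. The change was 4.11 (SE 0.16, 17.3-fold, limma adjusted p = 3.2e-05). C4b has a near-identical copy, C4a, whose own probe changed by 4.05, and the hybridization could be shared between them.

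Cfp, properdin, the stabilizer of the alternative convertase, read -0.81, -0.96 and -1.17 in young and 3.64, 2.81 and 2.26 in aged kidneys. Every aged kidney was above every young one, by 3.88 on average (SE 0.34, 14.8-fold, limma adjusted p = 3.34e-04). The 3 chains of C1q rose by nearly the same amount. C1qa read 0.24, 0.50 and 0.30 in young and 4.29, 4.03 and 3.81 in aged kidneys (change 3.69, SE 0.15, limma adjusted p = 3.2e-05). C1qb read -0.03, 0.32 and 0.24, then 3.98, 3.80 and 3.57 (change 3.61, SE 0.14), and C1qc read 1.05, 1.31 and 1.12, then 5.04, 4.73 and 4.56 (change 3.62, SE 0.15). For each chain the spread within an age was under a unit and the ages were separated by more than 3 units. The C1 proteases followed, C1ra with 2.33 (SE 0.16) and C1s1 with 2.53 (SE 0.21), at limma adjusted p of 1.5e-04 and 2.96e-04, although the copies C1rb and C1s2 changed by 2.18 and 2.52.

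Both anaphylatoxin receptors rose in the kidney. C5ar1, the receptor for C5a, read -4.31, -5.24 and -3.90 in young kidneys, 2 of which had the probe well above background, and -0.13, -0.51 and -0.85 in aged ones. C3ar1, the receptor for C3a, read -3.72, -4.66 and -3.88, then -0.18, -0.68 and -1.16. The ages did not overlap for either receptor, with changes of 3.99 (SE 0.37, limma adjusted p = 3.91e-04) and 3.41 (SE 0.33, limma adjusted p = 4.47e-04). Over the alternatives these changes were as low as 2.09 for C5ar1 and 2.11 for C3ar1, and both stayed called. Vsig4, a receptor of tissue macrophages for C3 fragments, was not tested in the kidney, since no young and 2 of 3 aged mice had its probe well above background, and the aged kidneys were at least 2.44-fold higher.

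Among soluble regulators, Serping1, the C1 inhibitor, rose by 2.76 (SE 0.20), Cfi, factor I, which cleaves C3b and C4b, by 2.69 (SE 0.17), C4bp, the C4b-binding protein, by 2.07 (SE 0.16) and Clu by 1.01 (SE 0.10). C6 rose by 1.83 (SE 0.13) and C2 by 0.90 (SE 0.08). The genes that fell were the C8 chains C8a (-2.79, SE 0.35) and C8g (-1.79, SE 0.26), the lectin pathway protease Masp2 (-2.27, SE 0.29), the lectin Mbl2 (-0.78, SE 0.17), the convertase inhibitor Cd55 (-1.20, SE 0.12), Cr2 (-0.58, SE 0.14), C7 (-0.39, SE 0.07), and Cr1l and Cd59a (both -0.25, SE 0.08 and 0.07). Cd59a and Cr1l turned to 0.13 and 0.12 with spike-in scaling, and Cr1l to 0.12 with quantile normalization. Cfb, factor B, which completes the alternative convertase with C3, read 5.85 to 5.94 in young and 5.49 to 5.86 in aged kidneys, a difference of -0.23 (SE 0.11, limma adjusted p = 0.12). The 6 other genes tested but not called were Mbl1, Hc, C9, Vtn, Cd46 and Itgam, with differences between -0.71 and 0.33, and Masp1 and C8b were not tested. For Itgam the probe used differed by 0.11, while its dimmer probe, at -2.09 in the young kidneys, differed by -0.81. Of the 25 calls, 15 held under all 16 alternatives run. With normexp background correction C6 rose by 0.54 and C4bp by 0.59, both still called. In 1 fit of all 24 arrays C4bp, C2 and Clu were not called higher. That fit also did not call C8a, Masp2, Mbl2, Cr2, C7, Cr1l and Cd59a lower, which left C8g and Cd55 as the falls.

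Cell type markers moved in the same kidneys. In the macrophage list 7 of 8 markers tested rose (median 3.65), and the summed level of the 10 markers went from between 4.37 and 4.58 to between 6.14 and 6.79. Clec4f, a Kupffer cell marker, was well above background in no kidney. All 5 fibroblast markers rose (median 3.14, sum from between 3.35 and 3.57 to between 5.46 and 5.90), 7 of 8 T cell markers rose, and 5 of 7 kidney epithelium markers fell (median -1.03). Of 7 hepatocyte markers tested, 4 fell and 1 rose (median -0.49). Their sums lay between 8.13 and 8.27 at 10W and between 6.61 and 7.51 at 90W. The part of these cells in the complement changes was not tested.

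**Figure D2:**
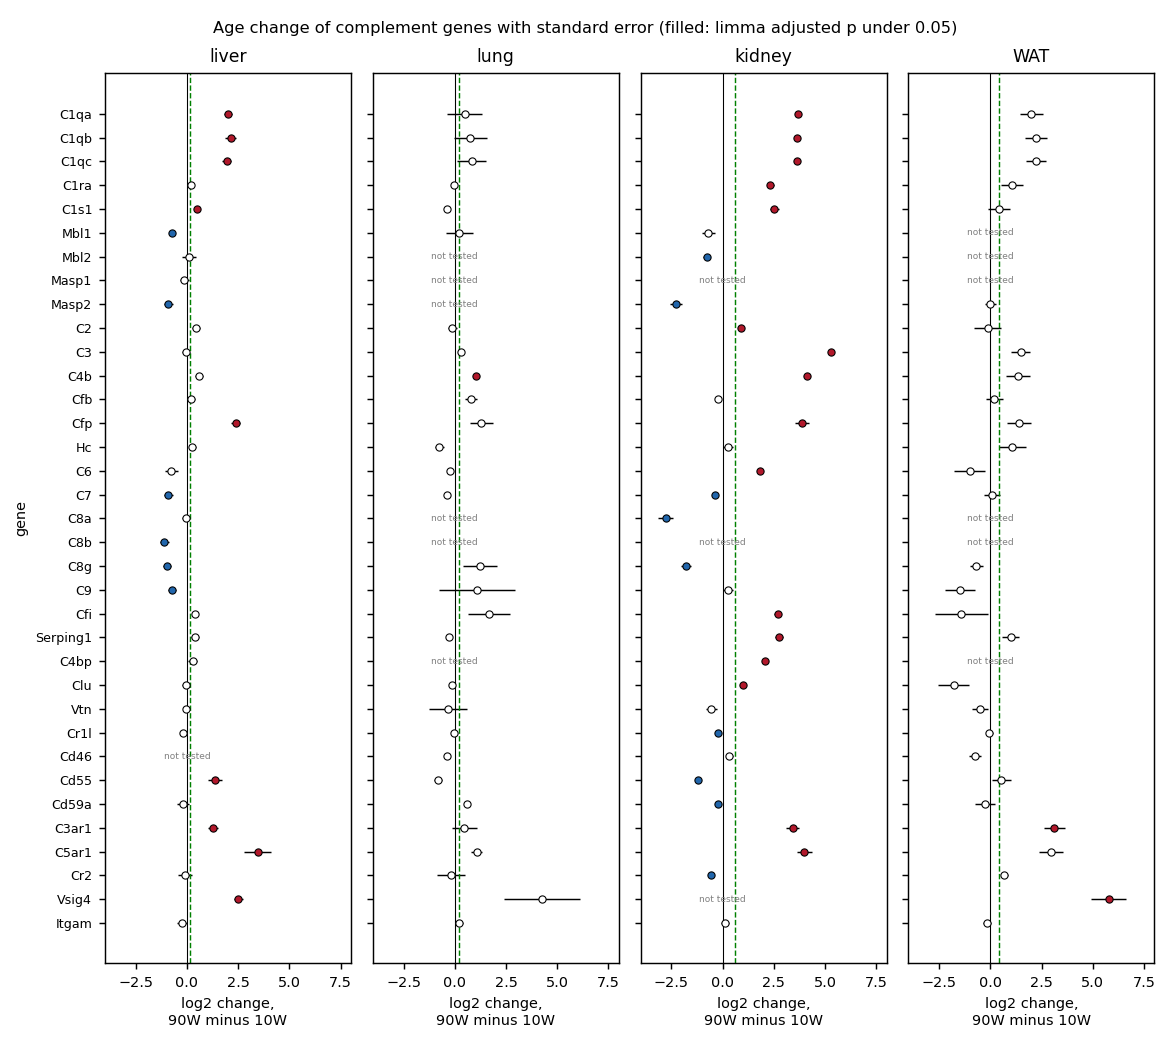
For each complement gene (rows) the points give the log2 change, 90W minus 10W, with its standard error in liver, lung, kidney and WAT (panels); red points are genes higher and blue points genes lower at 90W by limma at an adjusted p under 0.05, open points were not called, and the dashed line is the median of the genes tested. The kidney panel holds 16 red and 9 blue points with C3 farthest right at 5.31, the liver panel 9 and 6, the lung panel 1 red point and the WAT panel 2.

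In the aged liver the C1q chains, properdin and the receptors C3ar1, C5ar1 and Vsig4 rose, and 4 of 7 terminal and 2 of 4 lectin pathway genes fell. Of 34 genes tested, 9 rose and 6 fell by limma, against 10.6% and 16.8% of all genes tested, with a median of 0.14 beside -0.20 over all genes tested. The share of complement genes that fell lay near that of all genes. The rise covered C1qa, C1qb, C1qc, C1s1, Cfp, C3ar1, C5ar1, Vsig4 and Cd55. C3 itself read 10.15, 10.01 and 10.17 in young and 9.85, 10.32 and 9.98 in aged livers. These values overlapped, with a difference of -0.06 (SE 0.18, limma adjusted p = 0.816).

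C1qa read 2.72, 2.93 and 2.26 in young and 4.80, 4.61 and 4.52 in aged livers. C1qb read 2.76, 2.88 and 2.19, then 4.65, 5.08 and 4.48, and C1qc read 3.82, 3.97 and 3.69, then 5.87, 6.05 and 5.36. No aged liver overlapped a young one for any chain, as the choice of genes required. The changes were 2.0 (SE 0.21), 2.13 (SE 0.25) and 1.93 (SE 0.22), with limma adjusted p between 0.00267 and 0.00339. Cfp read 3.70, 4.0 and 3.75, then 6.57, 5.91 and 6.11, a rise of 2.38 (SE 0.21, limma adjusted p = 0.00183). These 4 were the calls in the liver that held under all 16 alternatives. Vsig4, a receptor known from Kupffer cells, read 1.49, 1.58 and 0.98 in young and 4.03, 3.87 and 3.64 in aged livers. Its change was 2.50 (SE 0.22, 5.66-fold, limma adjusted p = 0.00163), and 1 fit of all 24 arrays did not call it.

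C5ar1 read -3.79, -5.55 and -2.90 in young livers, 2 of which had the probe well above background, and -0.71, 0.06 and -1.23 in aged livers. The change of 3.45 (SE 0.67, limma adjusted p = 0.0141) rested on widely spread young mice, ran from 1.47 with normexp background correction to 4.34 with the replicate block, and was not called with that block or by the methods' t-test. C3ar1 read -1.91, -2.35 and -2.35, then -0.49, -0.99 and -1.32 (change 1.27, SE 0.25, limma adjusted p = 0.0152), and it was not called without 10W replicate 2, with the block or by the methods' t-test (value range 0.74 to 1.47 over the alternatives). Cd55, decay-accelerating factor, read 0.32, 0.29 and 0.22 in young and 2.27, 0.79 and 1.88 in aged livers. The young livers lay within a narrow band and the aged ones did not. The change was 1.37 (SE 0.36, limma adjusted p = 0.0338). It was not called in 9 of 16 alternatives, among them the mean of its probes, the brightest probe within the tissue (0.65), and the fits without any 1 young mouse or without 90W replicate 1 or 4, and the cause was not tested. C1s1 rose by 0.49 (SE 0.15, limma adjusted p = 0.046) and was lost in 10 of 16.

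The liver genes that fell were C8b (-1.10, SE 0.24), C8g (-0.97, SE 0.21), Masp2 (-0.91, SE 0.22), C7 (-0.91, SE 0.21), Mbl1 (-0.73, SE 0.15) and C9 (-0.72, SE 0.19), which are pore-forming or pore-assembly components and lectin pathway genes. C8g, for example, read 8.50, 8.41 and 8.30 in young and 7.49, 7.06 and 7.75 in aged livers, with limma adjusted p = 0.0195. C8a, the remaining C8 chain, differed by -0.04 (SE 0.18). None of the 6 was called without 10W replicate 1, without 10W replicate 2 or with spike-in scaling, which moved the median of all genes from -0.20 to -0.01, and the split of calls from 9 higher and 6 lower to 8 and 0. Other probes of the same genes gave -0.36 for C8b and -0.93 and -0.11 for Masp2.

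None of the 5 soluble regulators was called in the liver by limma, and their differences ran from -0.04 for Vtn to 0.40 for Cfi. Of the 5, 1 had an unadjusted limma p under 0.05, as did 12152 of all 27871 genes tested. C4b read 7.87, 7.90 and 8.01 in young and 8.26, 8.86 and 8.50 in aged livers. The ages did not overlap, and the difference of 0.61 (SE 0.19) lay just outside the threshold (limma adjusted p = 0.0541). The 12 other genes tested but not called were C1ra, Mbl2, Masp1, C2, Cfb, Hc, C6, C8a, Cr1l, Cd59a, Cr2 and Itgam, with differences between -0.76 and 0.42, and Cd46 was not tested.

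Macrophage markers moved with the liver genes that rose: 7 of 10 rose (median 2.0), and their summed level went from between 6.40 and 6.79 to between 8.27 and 8.75. Clec4f read 4.45 to 4.72 in young and 5.65 to 6.54 in aged livers. Of 8 hepatocyte markers 1 fell (median -0.44), with sums between 12.2 and 12.3 at 10W and between 11.7 and 12.0 at 90W. Fibroblast markers rose in 4 of 5 cases (median 1.18) and T cell markers in 5 of 8 (median 1.02). No other T cell marker moved up, and the T cell sums were lower at 90W (5.32 to 5.44) than at 10W (5.45 to 5.93). Of 8 neutrophil markers 1 was called higher (median 4.68), with sums of 4.83, 10.6 and 4.32 in the aged livers 1, 2 and 4 against 2.12 to 3.28 in the young, and aged liver 2 also had the highest C5ar1. The part of these cells in the complement changes was not tested.

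**Figure D3:**
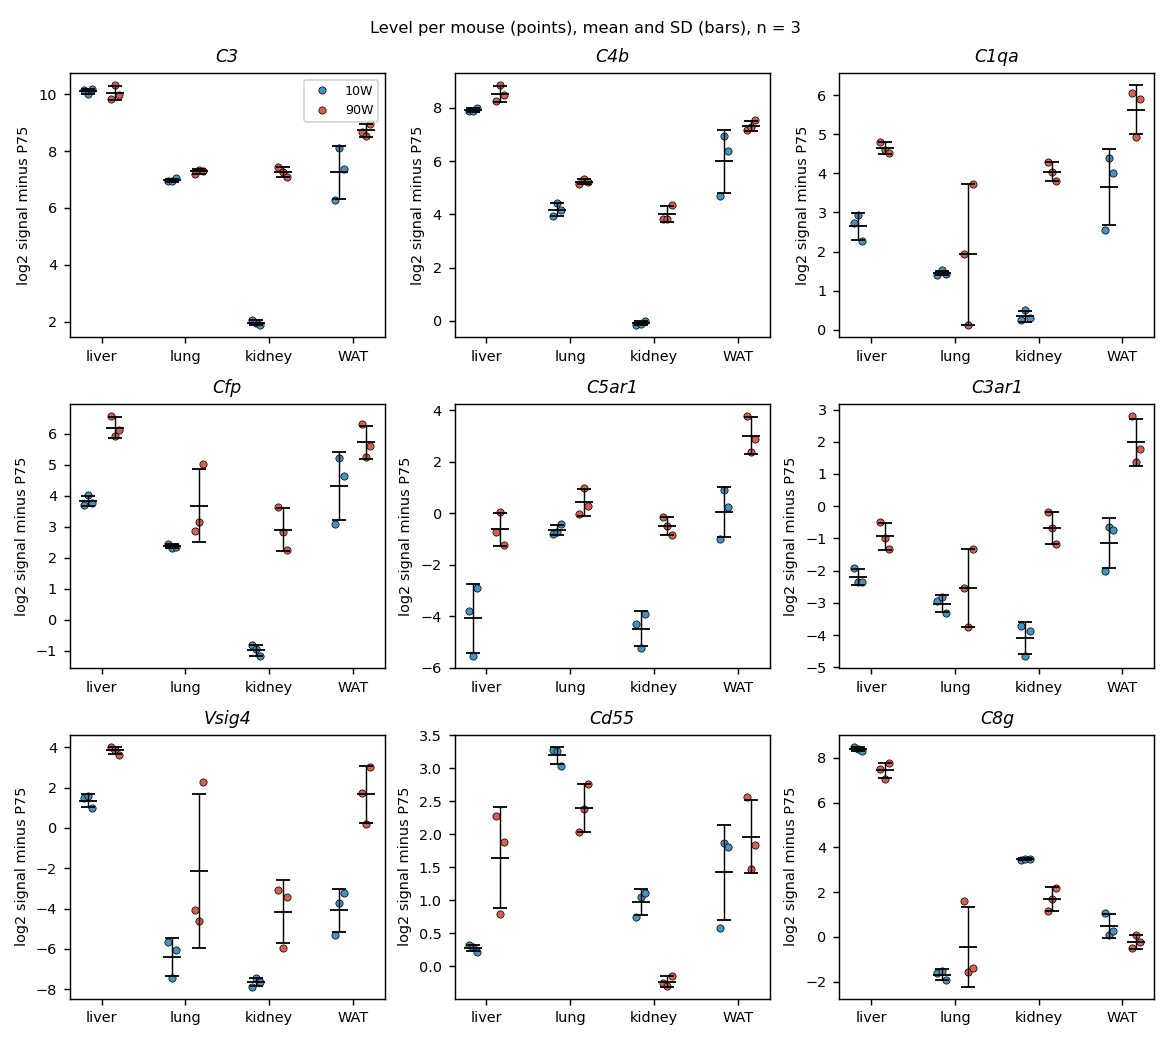
Each panel plots 1 gene as the log2 signal minus the 75th percentile (P75) in each mouse (points, blue for 10W and red for 90W) by tissue, with bars for the mean and SD of 3 mice. In the kidney the red points of C3, C4b, C1qa, Cfp, C5ar1 and C3ar1 lie above all blue points, in the liver C3 overlaps while C1qa, Cfp, C5ar1, C3ar1 and Vsig4 separate, Cd55 moves up in the liver and down in the kidney, and the aged lungs and young WAT are spread.

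In WAT 2 of 29 genes tested were called by limma, both higher (1.99% of all genes tested rose and 0.566% fell). An unadjusted limma p under 0.05 in either direction was found for 9 of the 29, beside 5780 of all 30042 genes tested. The median change was 0.43 beside -0.05 over all genes tested. Vsig4 read -5.29, -3.74 and -3.24 in young WAT and 1.75, 0.22 and 3.05 in aged WAT, a change of 5.76 (SE 0.84, limma adjusted p = 0.0301). C3ar1 read -2.02, -0.65 and -0.75, then 2.80, 1.37 and 1.76, a change of 3.12 (SE 0.52, limma adjusted p = 0.0427). Both were separated by age in all mice, as the choice of genes required. Leaving out any 1 mouse left neither gene called, except that without 90W replicate 2 Vsig4 was called, and with all 24 arrays in 1 fit 10 genes were higher and 2 lower.

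Several WAT genes had large differences that did not pass the test. C5ar1 read -0.99, 0.92 and 0.26 in young and 3.79, 2.37 and 2.88 in aged WAT (2.95, SE 0.58, limma adjusted p = 0.0638). The C1q chains differed by 1.98 (SE 0.56), 2.23 (SE 0.55) and 2.22 (SE 0.50), and C3 by 1.47 (SE 0.47, limma adjusted p = 0.173). In each of these 5 genes the aged mice lay above all young mice. None of the 5 was called, and they were chosen after their values were seen. The young mouse 1 was the lowest of the young mice for these genes, for example with C3 at 6.28 against 8.12 and 7.39. The same mouse was the highest for C4bp, at 6.69 against -7.93 and -3.40, and for Clu, at 8.35 against 5.94 and 5.43. In the macrophage list 3 of 9 markers tested rose (median 1.76), with sums from 5.44 to 7.03 at 10W and from 7.87 to 8.97 at 90W, and Clec4f was well above background in no WAT sample. T cell markers rose in 5 of 8 cases (median 1.94) and B cell markers in 4 of 8 (median 2.50), the B cell sums going from between -0.49 and 0.84 to between 2.77 and 3.61. Their part in these differences was not tested. Mbl1, Mbl2, Masp1, C8a, C8b and C4bp did not reach the background limit on enough WAT arrays for a test.

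In the lung 1 of 29 genes tested was called higher and none lower by limma, against 2.70% of all genes tested that rose and 2.86% that fell. An unadjusted limma p under 0.05 in either direction was found for 11 of the 29, beside 8148 of all 30313 genes tested. The median change was 0.23 beside -0.08 over all genes tested. C4b read 3.92, 4.44 and 4.18 in young and 5.15, 5.34 and 5.22 in aged lungs. The ages did not overlap, as the choice of genes required, and the change was 1.05 (SE 0.15, limma adjusted p = 0.0229). It was not called without any 1 of the young mice or without 90W replicate 3, with values between 0.93 and 1.18 over all alternatives. C3 read 6.95, 6.95 and 7.04, then 7.20, 7.35 and 7.31, a difference of 0.31 (SE 0.09, limma adjusted p = 0.101). C3ar1 and the C1q chains followed no single direction, with C1qa at 1.95, 0.11 and 3.73 in the aged lungs against 1.41 to 1.52 in the young.

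The aged lungs were widely spread. In 90W replicate 1, Mbl2 read 1.81 against -4.31 and -6.75 in the other aged lungs and -7.82 to -7.67 in the young. C8a read 0.01 there against -6.18 and -8.24, C9 0.02 against -6.66 and -5.99, Cfi 1.43 against -2.60 and -1.94, and Vtn, vitronectin, 3.09 against -0.15 and -0.50. The hepatocyte genes Alb (6.68) and Fgb (4.35) were high in the same array, while their part in these values was not tested. Replicate 3 was instead the highest of the aged lungs for Vsig4 (2.28 against -4.06 and -4.64), Cfp (5.02 against 2.87 and 3.14) and C1qa. Mbl2, Masp1, Masp2, C8a, C8b and C4bp were well above background on fewer than 3 lung arrays and were not tested. Without replicate 1 the lung had 1 gene higher and 2 lower, without replicate 2 it had 2 and 0, and without replicate 3 it had 0 and 1.

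**Figure D4:**
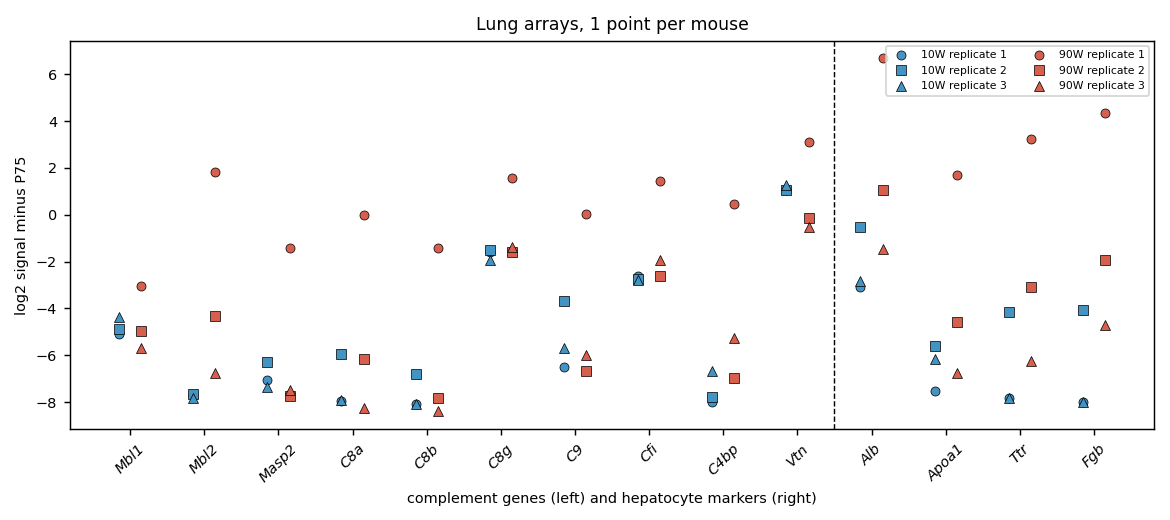
The plot gives the log2 signal minus the 75th percentile (P75) on each lung array (blue for 10W, red for 90W, with 1 symbol shape per replicate number) for 10 complement genes to the left and 4 hepatocyte markers to the right of the dashed line. The red circles, 90W replicate 1, lie above the other 5 arrays for every gene shown, with Mbl2 at 1.81 and Alb at 6.68.

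The age changes of the tissues were compared with each other for the 6 pairs of tissues, in 1 limma fit of all arrays with adjustment over all genes tested in both tissues. The pairs with the kidney held most of the differences: 13 genes in lung against kidney (22.0% of all genes tested), 10 in kidney against WAT (23.4%) and 7 in liver against kidney (9.03%). Each of the 3 other pairs had 1, namely Cd55 in liver against lung (16.3%), C3 in liver against WAT (18.5%) and C3ar1 in lung against WAT (3.25%). The counts of these 3 became 5 without lung 90W replicate 3, 4 without WAT 10W replicate 1 and 5 without WAT 10W replicate 2. The pairs with the kidney thus had 13 of 28, 10 of 28 and 7 of 31 complement genes tested in both tissues.

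C3 differed between kidney and every other tissue. The change in the liver minus that in the kidney was -5.37 (limma adjusted p = 1.89e-07). For lung minus kidney it was -5.00 (limma adjusted p = 4.65e-07), and for kidney minus WAT it was 3.84 (limma adjusted p = 7.29e-06). C4b, C6, C1s1 and Serping1 also rose more in the kidney than in each of the other tissues. C1ra did so against liver and lung. The C1q chains, Cfp, C5ar1 and C3ar1 differed between kidney and lung but were not called different between kidney and liver, where C1qa for instance rose by 3.69 and 2.0.

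Cd55 was called in opposite directions in liver and kidney. The young kidneys read 0.75, 1.05 and 1.12 and the aged kidneys -0.25, -0.30 and -0.15, so it fell by 1.20 there (limma adjusted p = 4.75e-04) while it rose by 1.37 in the liver. The difference between the tissues was 2.57 (limma adjusted p = 0.00234). Its 2 other probes had the same signs, 0.65 and 0.77 in the liver and -0.38 and -1.33 in the kidney. The near-identical copy Cd55b fell by 1.18 in the kidney and differed by 1.16 in the liver, where it was not called (limma adjusted p = 0.0523). In both tissues, signal shared between the copies cannot be told apart.

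**Figure D5:**
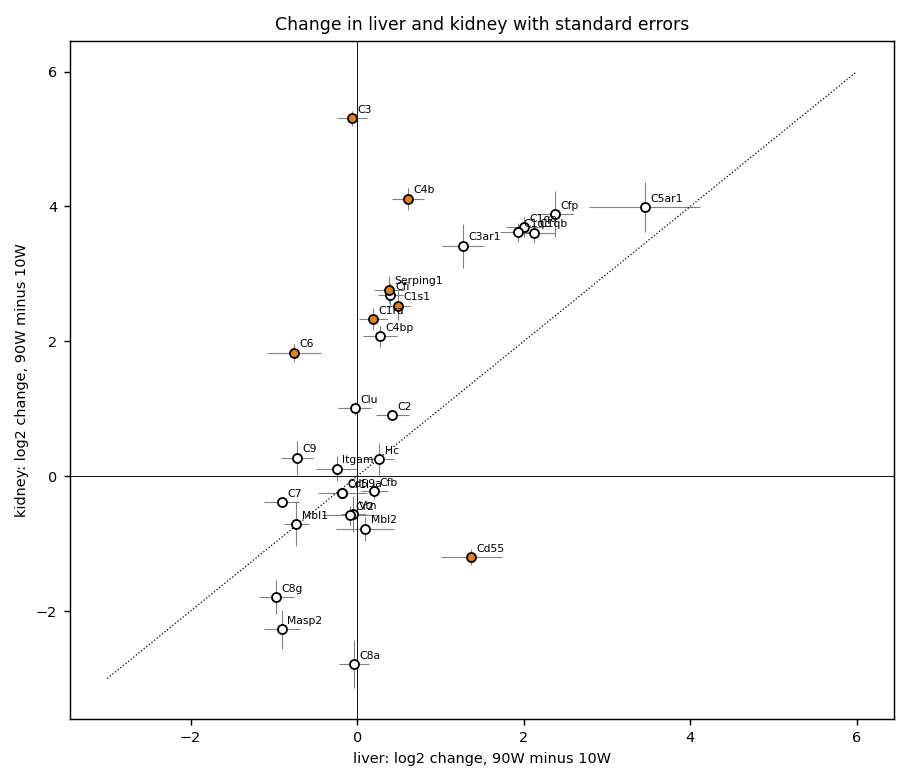
Each point is 1 complement gene tested in both tissues, with its log2 change, 90W minus 10W, in the liver on the horizontal and in the kidney on the vertical axis, standard errors as bars, and the dotted line where both are equal. The 7 orange points are the genes whose change differed between the tissues by limma; C3 lies at -0.06 on the liver axis and 5.31 on the kidney axis, and Cd55 at 1.37 and -1.20.

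Further complement genes outside the 35 were examined as a list of 27. In the kidney 15 of 21 tested rose and 6 fell, against 20.7% and 42.5% of all genes tested. The integrin chains Itgax (4.05, SE 0.18) and Itgb2 (3.21, SE 0.18), which form complement receptors 3 and 4 with their partners, and C4a (4.05, SE 0.22) were among those that rose, at limma adjusted p between 4.0e-05 and 7.7e-05. The complement inhibitor Csmd1 was well above background in no young and all aged kidneys, and was at least 4.24-fold higher (limma adjusted p = 2.37e-04). In the liver 7 of 24 rose and 1 fell (10.6% and 16.8% of all genes tested), with rises of Itgax by 2.97 (SE 0.33), Itgb2 by 2.37 (SE 0.26) and the second C5a receptor C5ar2 by 1.22 (SE 0.22). In WAT 1 of 21 rose (1.99% of all genes tested), C5ar2 (2.55, SE 0.43, limma adjusted p = 0.0438), and in the lung 1 of 21 (2.70%), Itgb2 (1.25, SE 0.21, limma adjusted p = 0.032).

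Cfd, factor D (adipsin), which activates factor B and is made by adipocytes, was the liver gene that fell. It read -0.63, 2.94 and 0.28 in young livers and -6.23, -6.42 and -0.83 in aged livers, and the change of -5.36 (SE 1.61, limma adjusted p = 0.0476) rested on widely spread mice. In the young lungs Cfd read 5.49 to 6.34 and in the aged lungs -7.02, -3.06 and 2.87, while it read 8.40 to 9.09 in WAT at both ages. In the kidney it was called higher, at 0.24, -4.90 and -4.75 in young and -0.19, 2.09 and 3.70 in aged mice, which overlapped (change 5.00, SE 1.64, limma adjusted p = 0.0361). Adipocyte markers also fell in the lung, with 3 of 7 lower (median -2.40, sums from 5.83 to 6.41 at 10W and 4.60 to 5.69 at 90W), while the adipocyte sums ran from 3.54 to 4.14 and then from 4.84 to 5.78 in the liver, and from 6.00 to 6.30 and then from 4.99 to 5.13 in the kidney. Although the kidney sum fell, 4 of 7 adipocyte markers were called higher there and 2 lower (median 1.15). The part of these markers in the Cfd values was not tested.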

How the data were processed

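Cy3-labelled RNA was hybridized to Agilent arrays of 62976 spots. The deposited intensity values were made by the authors with Feature Extraction 11.0.1.1: a background-subtracted processed signal per spot, not scaled between arrays, and a flag for signals well above background. The array files belong to a mouse design (mm9), although the kit given in the methods is a human one. Probe accessions, without versions, were matched to RefSeq symbols of GRCm38.p6 (32994 of 56605 probes, 58.3%).

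Spots flagged as uneven or outlying were dropped (1841 in total), and none was saturated. Signals were log2 transformed, spots of a probe were averaged and the array's 75th percentile was subtracted, without a floor. Each gene was represented by its brightest probe over all 24 arrays. Lower bounds on folds use, per array, the lowest signal well above background. Groups follow the sample labels, and the aged livers are numbered 1, 2 and 4. Ages were compared within each tissue, and levels and differences of the age change in 1 fit of all arrays, by limma 3.58.1 in R 4.3.3 with Benjamini-Hochberg adjustment at 0.05. With 3 mice per group, no exact permutation p can fall below 0.1. The text gives in full the up to 8 genes per tissue (4 for other complement genes) with the largest change among those called, without overlap and with the brighter group well above background on all its arrays, and for levels the gene of each role with the highest young value. Hc, the Cfd values outside the liver and values of uncalled genes were chosen after values were seen. The fit was tested on simulated data. Alternatives were other scalings, background correction (normexp, offset 50), no filter on dim probes, other probes, the 24-array fit, the methods' t-test, the replicate number as a block, and each mouse left out. The members and lists were chosen with earlier results of these data known. The labels number the mice of a group, and p-values measure only the spread between these samples.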

Additional observations from a re-analysis of the deposited data

Results flagged for a closer look

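The age change of a gene differed between a pair of tissues in 33 cases by limma, in a fit of all 24 arrays that tests the difference itself. Values are the change in the first tissue minus that in the second, on the log2 scale. Between liver and kidney the values were C3 -5.37, C4b -3.51, C6 -2.59, Serping1 -2.38, C1ra -2.14, C1s1 -2.03 and Cd55 2.57. Between lung and kidney they were C3 -5.00, C1qa -3.22, C4b -3.06, Serping1 -3.03, C3ar1 -2.94, C5ar1 -2.91, C1s1 -2.89, C1qb -2.85, C1qc -2.80, Cfp -2.58, C1ra -2.39, C6 -2.07 and C8g 3.02. The C8g value includes the aged lung with liver-type transcripts, where C8g read 1.59 against -1.58 and -1.37 in the other aged lungs.

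Between kidney and WAT the values were Cfi 4.12, C3 3.84, C6 2.84, Clu 2.81, C4b 2.78, Cfp 2.49, C1s1 2.10, Serping1 1.77, Cd46 1.08 and Cd55 -1.74. The Cfi and Clu values include the young WAT of replicate 1, where both genes were highest. The remaining cases were Cd55 in liver minus lung (2.17), C3 in liver minus WAT (-1.53) and C3ar1 in lung minus WAT (-2.65).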

How the results depend on the processing

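Of the calls of single genes, 4 of 15 in the liver, 15 of 25 in the kidney, 0 of 1 in the lung and 0 of 2 in WAT kept direction and threshold under all 16 alternatives. Cd59a in the kidney turned to 0.13 with spike-in scaling, and Cr1l to 0.12 with spike-in scaling and 0.12 with quantile normalization. The cause was not tested for these or for the changes in count that follow.

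Counts of the 35 genes moved as follows. In the liver, higher calls (9) became 14 with quantile normalization and 5 with the replicate block, and lower calls (6) became 0 with spike-in scaling, 0 with the block, 1 in the 24-array fit and 1 by the methods' t-test. In the lung the higher call (1) became 0 without the filter, in the 24-array fit, with the block and by the t-test. In the kidney lower calls (9) became 4 with spike-in scaling and 2 in the 24-array fit. In WAT higher calls (2) became 0 without the filter, with the block and by the t-test and 10 in the 24-array fit, where lower calls became 2.

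Of the other complement genes, liver higher calls (7) became 2 with the block and 4 by the t-test, and the lower call (1) became 0 with quantile normalization, 0 by the t-test and 2 in the 24-array fit. Lung higher calls (1) became 0 with spike-in scaling, without the filter, in the 24-array fit, with the block and by the t-test, and lower calls became 1 with normexp and 1 in the 24-array fit. Kidney lower calls (6) became 3 with spike-in scaling, 10 without the filter and 3 in the 24-array fit. WAT higher calls (1) became 0 with quantile normalization, without the filter, with the block and by the t-test and 9 in the 24-array fit, where the lower count became 1.

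Highest young levels in the lung (1) became 2 with quantile normalization and 4 with spike-in scaling, in the kidney (0) 1 with the mean of a gene's probes, and in WAT (1) 0 with normexp and with spike-in scaling. Differing age changes in liver against lung (1) became 4 with normexp, 2 with quantile normalization, with spike-in scaling and with the mean of probes, and 0 with the block. Liver against kidney (7) became 4 with the block, liver against WAT (1) 3 with normexp, 2 with median centring and 0 with the block, and lung against WAT (1) 2 with normexp and 0 with median centring, spike-in scaling and the block.

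With 1 mouse left out, higher and lower calls lay between 6 and 8 and between 0 and 6 in the liver, 0 and 2 and 0 and 2 in the lung, 16 and 16 and 7 and 11 in the kidney, and 0 and 1 and 0 and 0 in WAT. For other complement genes they lay between 4 and 7 and 0 and 2 in the liver, 0 and 1 and 0 and 2 in the lung, 13 and 15 and 5 and 6 in the kidney, and 0 and 0 and 0 and 0 in WAT. Highest young levels lay between 21 and 22 in the liver, 1 and 1 in the lung, 0 and 0 in the kidney and 1 and 5 in WAT, where the 5 came without WAT 10W replicate 1. Differing changes lay between 1 and 5 (liver against lung, 5 without lung 90W replicate 3), 6 and 9 (liver against kidney), 1 and 4 (liver against WAT, 4 without WAT 10W replicate 1), 11 and 16 (lung against kidney), 0 and 5 (lung against WAT, 5 without WAT 10W replicate 2) and 7 and 12 (kidney against WAT). Replicate numbers do not pair the mice, which differ between ages: correlations of the deviations of samples with the same number lay between -0.16 and 0.18, so the block shares only a number. Probes near background limit what can be read of liver-made genes in other tissues.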
